A study of Arabidopsis thaliana with 12 samples.

Results

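Transcript levels of 5-day-old Arabidopsis thaliana seedlings kept at 22 °C were compared between a line labelled rve5-2 and wild type (WT), with 3 libraries of each. These are 6 of the 12 libraries of the series, chosen by genotype and temperature alone, and all 21870 genes that passed a filter on low counts were tested, of 32399 in the table. The labels describe rve5-2 as a T-DNA mutant, that is, a line with a piece of foreign DNA inserted in the genome, and give no further detail of the insertion. The genotype label of the controls says wild type and names no accession. All seedlings had grown at 22 °C in long days of 16 h light and 8 h dark, were held for a further 12 h at 22 °C, and were collected whole at zeitgeber time (ZT) 12 h, counted from lights on. The other 6 libraries had the same 2 genotypes, ages and harvest time but spent those 12 h at 29 °C. By its title the study concerns how REVEILLE 5 (RVE5) and CIRCADIAN CLOCK ASSOCIATED 1 (CCA1) act on hypocotyl growth in warmth. The comparison at 22 °C gives the genotype difference before any warming.

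RVE5 belongs to a family of Myb-like transcription factors that also holds CCA1 and LHY, the morning repressors of the plant circadian clock. These factors bind the evening element, a short DNA string found before many genes that peak around dusk, such as GI and the genes of the PRR family. Binding by CCA1 and LHY lowers transcription at dawn, whereas RVE4, RVE6 and RVE8 of the same family activate evening genes. The clock in turn gates growth regulators such as PIF4 and the genes of the photosynthetic antenna.

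Of the genes tested, 30 were higher in the libraries labelled rve5-2 (0.137% of all genes tested) and 12 were lower (0.0549%), by edgeR's quasi-likelihood test at a Benjamini-Hochberg adjusted p under 0.05, together 0.192%. The libraries of the groups did not overlap for any of these 42 genes, a state shared by 14.4% of all genes tested. A difference of at least 2-fold was seen in 17 of the genes that rose and in 1 of those that fell. The median log2 fold change over all genes tested was -0.00, with 5th and 95th percentiles of -0.56 and 0.55. Light-harvesting genes and clock genes made up 10 and 5 of the 30 rises.

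**Figure D1:**
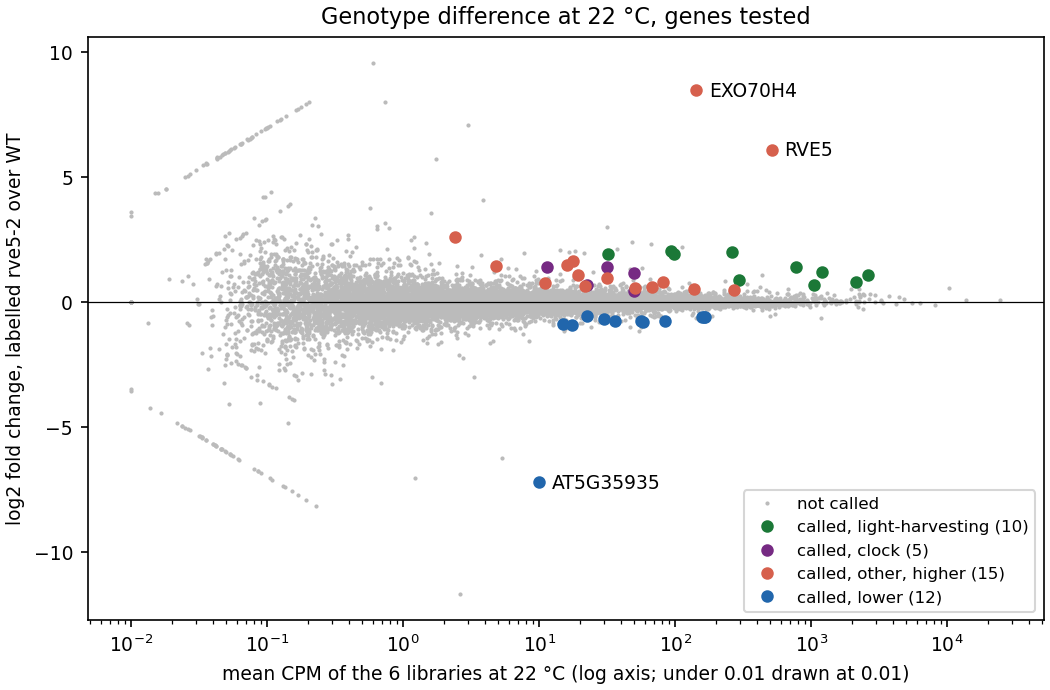
Log2 fold change of the libraries labelled rve5-2 over WT at 22 °C (y axis) against the mean level in CPM (counts per 1e6 counts after scaling) of the 6 libraries (x axis, log scale), with 1 point for each of the 21870 genes tested and the called genes coloured. EXO70H4, RVE5 and AT5G35935 stand far from the other called genes, and the 10 light-harvesting genes all lie above 0, over a wide range of mean levels.

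The evening elements before the called genes are shown here because they are the sites that the RVE and CCA1 family is known to bind. The string AAAATATCT was searched on both strands in the 1000 bases before each gene's start. The starts are those of the deposited table, and the sequence is that of RefSeq build TAIR10.1. This string stood before 9 of the 30 genes that rose (30.0%), before 0 of the 12 that fell, and before 7.38% of all genes with a sequence. The 12 sites lie 101 to 952 bases before the gene start. For MYBL2, LHCA4, DFL2, BBX24 and LUX, the 120 bases around the element nearest the start overlap an exon annotated in RefSeq. Whether that exon belongs to the same gene was not checked. The sites are printed 5′ to 3′ on the strand that carries the string, with the element in capitals.
GI, chr1:8060932-8060960, plus strand: gtaagattttAAAATATCTtaaaagatgt
GI, chr1:8060964-8060992, minus strand: gcccgttgagAAAATATCTaaatgggcct
GI, chr1:8061150-8061178, plus strand: agctcccctcAAAATATCTgtggacatat
PRR5, chr5:8359807-8359835, minus strand: acccaacaacAAAATATCTagccgcggaa
PRR5, chr5:8359244-8359272, plus strand: ccaaacccaaAAAATATCTaatgctagtg
LUX, chr3:17182979-17183007, plus strand: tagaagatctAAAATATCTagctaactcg
MYBL2, chr1:26796735-26796763, plus strand: attatttgatAAAATATCTgaagcttccg
BBX24, chr1:1830017-1830045, minus strand: gaatataataAAAATATCTaaaggtagga
DFL2, chr4:1500345-1500373, minus strand: cccaaaagaaAAAATATCTtgtgcaactt
LHCA4, chr3:17495547-17495575, minus strand: gaatattcccAAAATATCTtataaggatc
CIPK20, chr5:18589131-18589159, minus strand: ttgataacttAAAATATCTtaatcgccaa
THI2.2, chr5:14563552-14563580, minus strand: ataacgcaccAAAATATCTgaatagaaag

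GI held 3 such strings and PRR5 held 2, and of the 5 clock genes that rose, 3 held at least 1. PRR7 and LNK1, the called clock genes with the largest rises, had none in this window. Among the 10 light-harvesting genes that rose only LHCA4 had one. The related CCA1-binding site AAAAATCT, which does not overlap the evening element letter for letter, stood before 6 of the 30 genes that rose, 3 of the 12 that fell and 21.1% of all. The G-box CACGTG, a site for bHLH and bZIP factors such as the PIFs and HY5, stood before 36.7% of the genes that rose, 8.33% of those that fell and 17.4% of all. The I-box core GATAAG, known from light-regulated genes, stood before 53.3%, 58.3% and 41.4%. Several of the 12 genes that fell lie in the same block of chromosome 1 and share sequence. Of these, AT1G58684, AT1G58983 and AT1G59359 have I-box cores at identical positions. The shares over the 12 that fell, also for the evening element, thus count such copies as separate genes. These shares describe letters in a window and are given without a test.

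RVE5 itself (AT4G01280, chromosome 4, 535211 to 537322), the gene the allele is named for, was higher and not lower in the mutant-labelled libraries. Its level was 14.6, 15.8 and 14.4 CPM in WT against 1075, 939 and 1018 CPM in the libraries labelled rve5-2. Every library labelled rve5-2 lay far above every WT library, so the label of a mutant cannot be read from these data as less RVE5 transcript, and the libraries are called by their label throughout. Means were 14.9 ± 0.757 CPM and 1011 ± 68.1 CPM (SD, n = 3 each), a 67.7-fold difference (log2 fold change 6.08, SE 0.113, adjusted p = 1.05e-11). On the authors' length-scaled FPKM the group means were 10.4 and 686. None of the 50-base stretches of its exons occurs elsewhere in the genome. The counts are per gene and do not show whether the transcript was whole.

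The next gene along the chromosome, AT4G01290, lies 0.668 kb beyond RVE5 on the opposite strand and carries no symbol or function in the table. It stood at 101, 109 and 104 CPM in WT and at 60.3, 61.5 and 65.4 CPM in the libraries labelled rve5-2, with no overlap. Its log2 fold change was -0.75 (SE 0.0608, adjusted p = 0.000128). The other genes tested within 5 places of RVE5 (AT4G01240, WRKY22, AT4G01270, AT4G01310, ATSTE24 and AT4G01330) had log2 fold changes from -0.42 to 0.24 and adjusted p-values of 0.88 or more. A further gene that fell, TBL26 (AT4G01080), of a family that acetylates cell-wall polysaccharides, lies 66.9 kb before RVE5. Its means were 22.9 ± 3.02 CPM in WT against 12.1 ± 1.57 CPM in the libraries labelled rve5-2 (log2 fold change -0.92, adjusted p = 0.0454), and the call was lost with any of the 6 libraries left out.

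**Figure D2:**
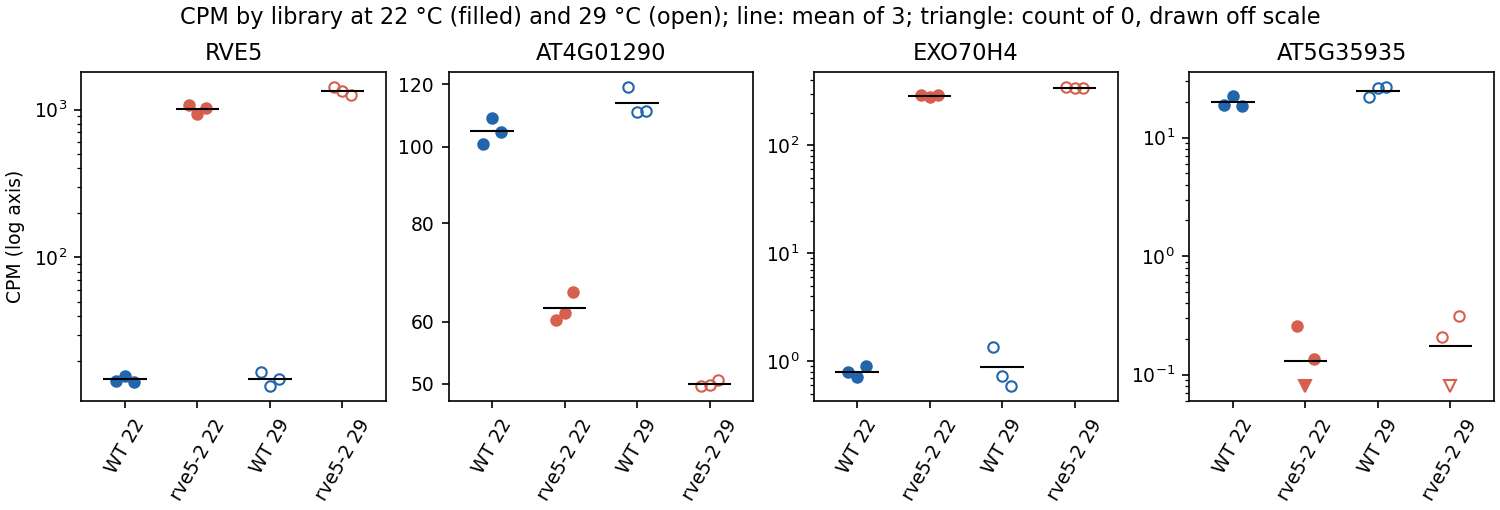
CPM of RVE5, AT4G01290, EXO70H4 and AT5G35935 (y axes, log scale) in each of the 12 libraries, with WT in blue and the libraries labelled rve5-2 in red, filled at 22 °C and open at 29 °C, and a line at the mean of 3. RVE5 and EXO70H4 sit far higher and AT5G35935 far lower in the libraries labelled rve5-2 at both temperatures, and triangles mark libraries with a count of 0 drawn off scale.

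Among the called genes, the largest rise and the largest fall lay on other chromosomes than RVE5. EXO70H4 (AT3G09520, chromosome 3, 2923743 to 2925629), an exocyst subunit known for thickening the trichome cell wall, was low in WT, at 0.792, 0.715 and 0.9 CPM, and at 289, 279 and 288 CPM in the libraries labelled rve5-2. The libraries within each group lay close together, and the difference was 356-fold (log2 fold change 8.47, SE 0.23, adjusted p = 5.95e-10). No other member of the EXO70H list was called among 6 tested. EXO70H6, with a count of 0 in all 3 WT libraries and 0, 0.113 and 0.639 CPM in those labelled rve5-2, had an unadjusted p under 0.05 (adjusted p = 0.677) on too few counts for a fold. EXO70H7 stood at 14.8, 15.1 and 1.24 CPM in WT and at 16.3, 16.1 and 16.6 CPM in the libraries labelled rve5-2, without overlap but with 1 WT library far below the others (adjusted p = 0.923). EXO70H1 had means of 4.37 ± 0.221 CPM and 4.34 ± 1.82 CPM. EXO70H2 had 5.28 ± 1.12 CPM in WT against 7.04 ± 1.6 CPM in the libraries labelled rve5-2 (adjusted p = 0.882). The 7 genes tested within 5 places of EXO70H4 had adjusted p-values from 0.755 to 0.998.

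AT5G35935, annotated as a transposable element gene (chromosome 5, 14083388 to 14089891), showed the largest fall among the called genes. It stood at 18.8, 22.2 and 18.4 CPM in WT and at 0.258, 0 and 0.135 CPM in the libraries labelled rve5-2. The latter are a few fragments per library, so the size of the fold is poorly fixed (log2 fold change -7.21, SE 0.597, adjusted p = 0.000128), while the separation of the groups is complete. The 4 genes tested within 5 places of it had adjusted p-values from 0.938 to 0.971. None of the 12 genes on a list of DNA methylation and silencing factors was called by edgeR or DESeq2, and 0 had an unadjusted p under 0.05, which 6.39% of all genes tested had, with log2 fold changes from -0.17 to 0.14.

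Photosynthetic antenna genes were the largest group among the rises. The LHCB proteins bind chlorophyll a and b around photosystem II and the LHCA proteins around photosystem I. On the list of light-harvesting genes and Rubisco small subunits, 10 of 22 members passed the test, all higher, and 19 had a positive log2 fold change. Of all genes tested, 0.137% passed as higher. The median log2 fold change of the 22 was 0.62, beside -0.00 over all genes tested. In whole seedlings, more green tissue and more transcript per green cell cannot be told apart.

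The LHCB2 genes, which code for the mobile antenna protein of photosystem II, rose most as a group. LHCB2.2 (AT2G05070) stood at 38.6, 34.3 and 34.2 CPM in WT and at 175, 153 and 118 CPM in the libraries labelled rve5-2. All 3 libraries labelled rve5-2 exceeded the highest WT library at least 3-fold, and the log2 fold change was 2.06 (SE 0.183, adjusted p = 0.000198). LHCB2.1 rose from 41.1 ± 4.24 CPM to 156 ± 29.7 CPM and LHCB2.3 from 13.3 ± 2.03 CPM to 50.4 ± 12.7 CPM (SD, n = 3), with log2 fold changes of 1.92 and 1.93. LHCB2.1 and LHCB2.2 share sequence, with 23.5% and 29.5% of the 50-base stretches of their exons found elsewhere in the genome, so reads may have been split between them. LHCB2.3 shares none.

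LHCB1 genes code for the most abundant antenna protein, and they rose unequally. LHCB1.1 (AT1G29920) stood at 128, 103 and 85.8 CPM in WT and at 456, 429.9 and 372 CPM in the libraries labelled rve5-2, a clear separation with a log2 fold change of 1.99 (SE 0.215, adjusted p = 0.00103). LHCB1.5 rose from 1671 ± 44.7 CPM to 3543 ± 376 CPM, a 2.12-fold difference (adjusted p = 0.000673). LHCB1.2 rose 1.74-fold, from 1558 ± 77.5 CPM (adjusted p = 0.0326). LHCB1.3, the member with the highest level at 8062 FPKM in WT, had a log2 fold change of 0.56 that did not pass the test (adjusted p = 0.183), and LHCB1.4 had 1.10 (adjusted p = 0.0652). The LHCB1 members also share sequence, with 10.6 to 20.5% of stretches found elsewhere among the 3 that rose, so their separate values are uncertain.

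LHCB3 and the minor and photosystem I antenna genes followed, with smaller differences than the LHCB2 genes. LHCB3 stood at 490.4, 351 and 432 CPM in WT and at 1285, 1098 and 969 CPM in the libraries labelled rve5-2. The lowest of the latter was well above the highest WT library (log2 fold change 1.40, adjusted p = 0.00294). LHCA4 rose from 724 ± 65.5 CPM to 1666 ± 236 CPM, LHCB4.2 from 207 ± 16.9 CPM to 386 ± 58.3 CPM and LHCB6 from 806 ± 40.5 CPM to 1283 ± 119.6 CPM, with adjusted p-values of 0.00125, 0.0103 and 0.0245. LHCB4.3 was the lowest member, with a log2 fold change of -0.39 (adjusted p = 0.653).

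The 4 Rubisco small-subunit genes, which code for the other very abundant green-tissue transcripts, were not called. RBCS1A had means of 23928 ± 876 CPM in WT against 25091 ± 951 CPM in the libraries labelled rve5-2, groups that overlap (log2 fold change 0.07, SE 0.121). RBCS2B, RBCS1B and RBCS3B had log2 fold changes of -0.12, -0.05 and 0.10. Markers of the stomatal lineage and guard cells summed to 81.7 to 93.3 CPM in the WT libraries. In those labelled rve5-2 they summed to 91.6 to 112 CPM, an overlapping range. None of the 14 was called, with 2 at an unadjusted p under 0.05, which 6.39% of all genes tested had. With each library at 22 °C left out in turn, 7 of the 10 light-harvesting calls held throughout, and those of LHCB4.2, LHCB1.2 and LHCB6 were lost in at least 1 of the refits.

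**Figure D3:**
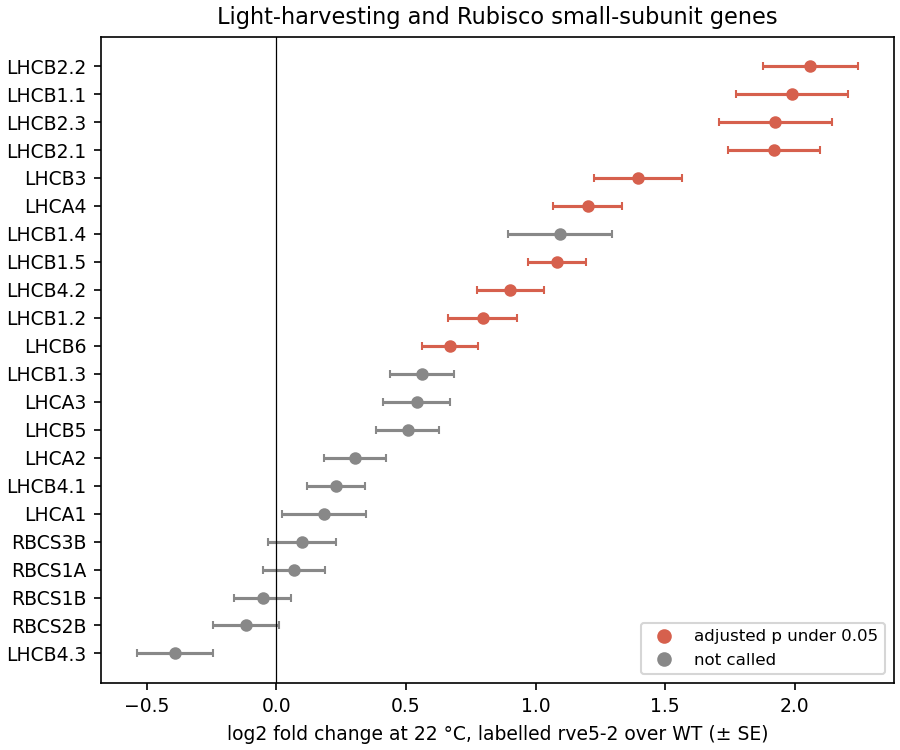
Log2 fold change at 22 °C of the libraries labelled rve5-2 over WT (x axis) with its SE as bars, for the 22 light-harvesting and Rubisco small-subunit genes (rows), in red where the adjusted p was under 0.05. The 10 called genes range from 0.67 for LHCB6 to 2.06 for LHCB2.2, and the 4 Rubisco genes lie within 0.12 of 0.

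Among clock genes, 2 of 15 on the morning list and 3 of 16 on the evening list rose, and none fell at the threshold. Of all genes tested, 0.137% rose. At an unadjusted p under 0.05 were 6 genes of the morning list, 9 of the evening list and 6.39% of all genes tested. The libraries of the groups did not overlap for 7 and 10 of the list members, and for 14.4% of all genes tested. PRR7 and PRR5 are repressors that act in series through the day, LNK1 is a coactivator that binds RVE8-type factors, GI stabilises an F-box protein of the clock and LUX is a DNA-binding part of the evening complex. PRR7 (AT5G02810) stood at 18.2, 17.5 and 16.5 CPM in WT and at 47.6, 47.8 and 41.6 CPM in the libraries labelled rve5-2. LNK1 (AT5G64170) stood at 7.32, 4.88 and 6.52 CPM against 16.6, 16 and 17.2 CPM. Neither gene's groups overlap, and the log2 fold changes were 1.39 (SE 0.117) for PRR7 and 1.41 (SE 0.118) for LNK1, each with an adjusted p of 0.000128. GI (AT1G22770) stood at 36.3, 27.3 and 28.9 CPM in WT and at 73.7, 71.3 and 62 CPM in the libraries labelled rve5-2, again without overlap (log2 fold change 1.16, adjusted p = 0.000236).

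PRR5 and LUX rose by less. PRR5 had means of 17.2 ± 1.98 CPM and 28 ± 2.11 CPM (1.63-fold, adjusted p = 0.0242). LUX had 42 ± 1.54 CPM and 57.2 ± 3.04 CPM (1.36-fold, adjusted p = 0.0326). The call of PRR5 was lost without replicate 1 or 3 of WT or replicate 1 or 2 labelled rve5-2, and that of LUX without any single library but replicate 3 labelled rve5-2. The calls of PRR7, LNK1 and GI held in all 6 refits. LNK2, a close relative of LNK1, had a log2 fold change of 1.33 with more spread (adjusted p = 0.0816). LNK3 and LNK4 had larger values than LNK1, of 1.72 and 1.71, and were not called (adjusted p = 0.857 and 0.641). TOC1 and FKF1 had 0.35 and 0.47 (adjusted p = 0.149 and 0.167).

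The morning factors CCA1 and LHY, known to peak around dawn, were low at this hour. CCA1 stood at 0.198, 0.778 and 0.272 CPM in WT and at 0.734, 0.751 and 1.13 CPM in the libraries labelled rve5-2. LHY stood at 0.607, 1.47 and 0.734 CPM against 1.17, 1.29 and 1.65 CPM. The groups overlap for either gene, with adjusted p-values of 0.814 and 0.94, and so few counts allow no statement of equality. The evening-complex genes ELF4 and ELF3 each had a log2 fold change of -0.01 (SE 0.11 and 0.0837). Of the RVE relatives, RVE4, RVE6 and RVE8 had 0.30, 0.01 and -0.25, none of them called. One time of day was sampled, so a shift in time and a change in level cannot be told apart.

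**Figure D4:**
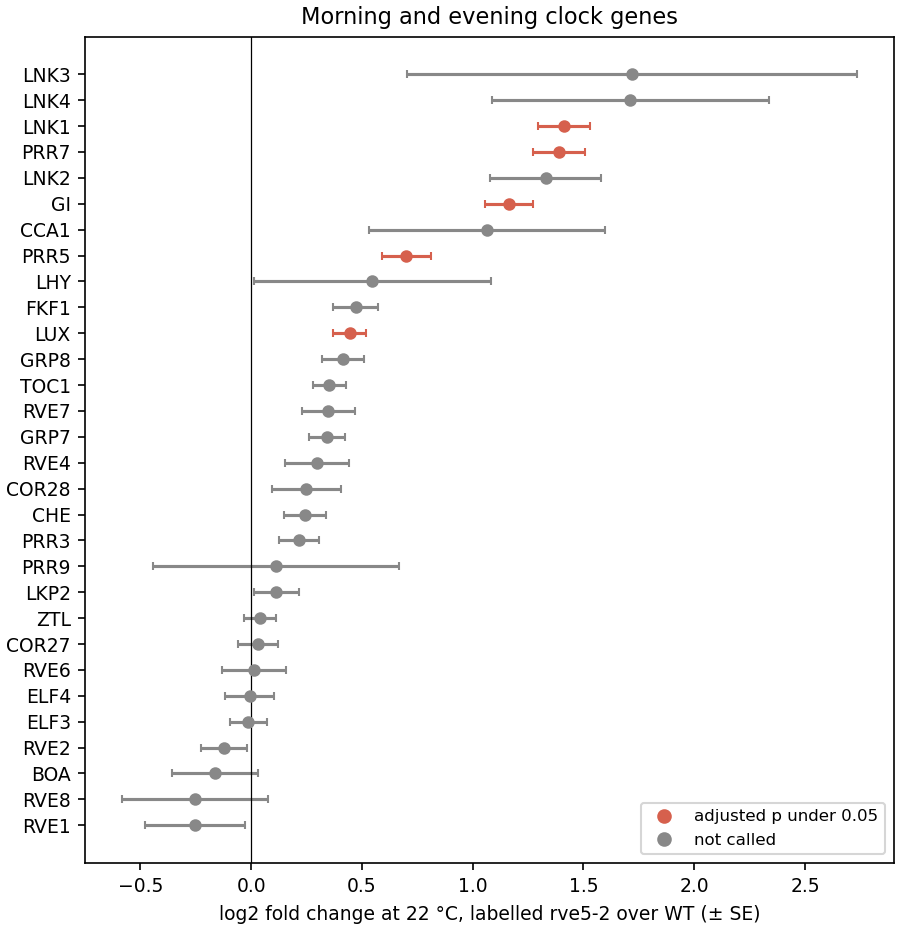
Log2 fold change at 22 °C of the libraries labelled rve5-2 over WT (x axis) with its SE as bars, for the morning and evening clock genes (rows), in red where the adjusted p was under 0.05. The 5 called genes all lie above 0, from 0.45 for LUX to 1.41 for LNK1, and RVE3 is left out because its count was 0 in all 3 libraries labelled rve5-2.

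Growth and light regulators gave 1 call in each of several lists. PIF4 (AT2G43010), the bHLH factor that drives hypocotyl elongation in warmth, stood at 23.6, 17.9 and 21.9 CPM in WT and at 47.8, 40.4 and 36.6 CPM in the libraries labelled rve5-2, without overlap (log2 fold change 0.98, SE 0.139, adjusted p = 0.0098). It was the 1 call among 22 PIF and shade regulators, whose median log2 fold change was 0.12. PIF5 had 0.88 and HFR1, an inhibitor of PIFs, had 1.10, with adjusted p-values of 0.125 and 0.283. The PIF4 target YUC8, an auxin synthesis gene, had means of 2.46 ± 1.05 CPM and 2.21 ± 0.947 CPM (adjusted p = 0.989). None of 12 auxin synthesis genes, 18 auxin response genes, 19 SAUR growth genes or 16 cell-wall loosening genes was called by edgeR's quasi-likelihood test, with 2, 2, 2 and 5 of them at an unadjusted p under 0.05, as were 1397 (6.39%) of all genes tested. On these lists 5, 14, 18 and 12 genes had a positive log2 fold change, with medians of -0.10, 0.17, 0.36 and 0.16. DESeq2 called 1 SAUR gene and no other gene of these lists.

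BBX24, a B-box repressor of light responses, rose from 53.3 ± 4.87 CPM to 81.4 ± 4.62 CPM (adjusted p = 0.00597), the 1 call among 12 B-box genes. CDF3, a DOF factor of the flowering pathway, rose from 8.09 ± 1.28 CPM to 13.8 ± 2 CPM (adjusted p = 0.0454), a call lost with any of the 6 libraries left out. MYBL2, a repressor of anthocyanin synthesis, rose from 2.62 ± 0.341 CPM to 7.07 ± 1.22 CPM (log2 fold change 1.43, adjusted p = 0.00654). It was the 1 call among 21 flavonoid genes, of which 16 had a negative log2 fold change, with a median of -0.32. The early enzyme genes CHS and CHI had log2 fold changes of -0.55 and -0.56 and the flavonol synthase gene FLS1 had -0.62, with adjusted p-values of 0.835, 0.459 and 0.746. Without replicate 1 of WT at 29 °C, which enters the shared estimate of spread, 5 flavonoid genes were called lower at 22 °C.

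The remaining rises carry no common list. CIPK20, a protein kinase that binds calcium sensors, stood at 0.699, 0.69 and 0.64 CPM in WT and at 4.7, 5.62 and 2.13 CPM in the libraries labelled rve5-2, a wide range but no overlap (log2 fold change 2.61, SE 0.405, adjusted p = 0.0189). With 1 library left out its call held only without replicate 3 labelled rve5-2, and limma on log2(FPKM + 1) gave 1.28 (adjusted p = 0.211). A pair of genes for thionins, small antimicrobial peptides, rose. THI2.2 stood at 7.88, 8.44 and 8.87 CPM against 27, 22.9 and 20.4 CPM (log2 fold change 1.48, adjusted p = 0.000203). AT1G66100 rose from 8.63 ± 2.28 CPM to 27 ± 3.55 CPM (adjusted p = 0.0145), a call lost without replicate 2 or 3 of WT or replicate 1 or 3 labelled rve5-2.

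COL5, HDR, DFL2, DGR2, AT1G66180 and AT4G18970 were chosen after their values were seen, as were LHCB4.2, LHCB1.2 and LHCB6 and the members of lists that were named without being called, other than clock genes and YUC8. COL5, of the CONSTANS-like family, had the smallest SE of the rises (0.0739), at 12.8, 12.4 and 11.8 CPM in WT against 26.9, 26.1 and 25 CPM in the libraries labelled rve5-2 (adjusted p = 2.9e-05). HDR, the last enzyme of the plastid isoprenoid pathway, rose 1.43-fold and DFL2, of the GH3 family that conjugates plant hormones, rose 1.55-fold (adjusted p = 0.04 and 0.0267). DGR2, of the DUF642 family of cell-wall proteins, AT1G66180, annotated as an aspartyl protease, and AT4G18970, annotated as a GDSL lipase, rose 1.41-, 1.49- and 1.77-fold. Of the 6 refits without 1 library, HDR, DGR2 and AT4G18970 were called only in that without replicate 3 labelled rve5-2. DFL2 lost its call without any WT library or without replicate 2 labelled rve5-2, and AT1G66180 without replicate 2 of WT or replicate 1 labelled rve5-2.

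Of the 12 genes that fell, 7 lie in 1 block on chromosome 1 between 21769762 and 21843745. There, 4 genes annotated as CC-NBS-LRR disease resistance proteins (AT1G58807, AT1G58848, AT1G59124 and AT1G59218) are interspersed with 3 annotated as ribosomal protein S5 (AT1G58684, AT1G58983 and AT1G59359). At least 99.3% of the 50-base stretches of their exons occur elsewhere in the genome, so their counts cannot be separated and are not independent measurements. AT1G58848 stood at 45.4, 45.3 and 46 CPM in WT and at 25.1, 28.5 and 27.1 CPM in the libraries labelled rve5-2 (log2 fold change -0.76, adjusted p = 0.000394). AT1G58983 stood at 197, 199 and 190.0 CPM in WT and at 125, 131 and 130.4 CPM in the libraries labelled rve5-2 (log2 fold change -0.60, adjusted p = 0.00357). The libraries within a group lay close together, and the 7 log2 fold changes ran from -0.80 to -0.60. The number of copies in either line was not analysed here.

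The last pair of falls came from single-copy loci. cPT4 (AT5G58770), a cis-prenyltransferase, stood at 18.5, 17.4 and 22.3 CPM in WT and at 10.7, 9.83 and 11.3 CPM in the libraries labelled rve5-2 (log2 fold change -0.87, adjusted p = 0.00231). AT1G23330, annotated as an alpha/beta-hydrolase, had means of 26.6 ± 2.15 CPM and 18.2 ± 0.918 CPM (adjusted p = 0.0454), and its call was lost with any of the 6 libraries left out.

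At 29 °C the same contrast, in 6 other libraries, called 70 genes higher (0.320%) and 32 lower (0.146%). Of the 42 genes called at 22 °C, 32 were also called at 29 °C in the same direction, which is 76.2% of the calls at 22 °C and 31.4% of those at 29 °C. All 42 kept their sign. The test of the difference between the temperatures called no gene (0% of the 21870), with a smallest adjusted p of 0.398 among the 42. At an unadjusted p under 0.05 it picked 13 of the 42 and 1070 (4.89%) of all genes, and DESeq2 called 2 of the 42 and 43 genes in all. The 42 were selected by their difference at 22 °C, which also enters this test. Their share therefore cannot be set against that of all genes.

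RVE5 had a log2 fold change of 6.46 at 29 °C, EXO70H4 8.57 and AT5G35935 -7.09, against 6.08, 8.47 and -7.21 at 22 °C. AT4G01290, next to RVE5, had -1.18 at 29 °C against -0.75 at 22 °C. It had the smallest adjusted p of the 42 genes in edgeR's test of the difference between the temperatures (0.398). LHCB1.1 had 2.75 at 29 °C against 1.99 at 22 °C, and LHCB2.2 had 2.02 against 2.06. The evening clock genes called at 22 °C had smaller values at 29 °C, of 0.50 for GI, 0.05 for PRR5 and 0.02 for LUX, none of them called there. These genes were picked for passing at 22 °C, which by itself favours larger values at that temperature. Their differences between the temperatures, of -0.66, -0.65 and -0.43, did not pass the test (adjusted p = 0.586, 0.654 and 0.654). On the evening list ELF4 and COR27, at -0.01 and 0.03 at 22 °C, were called lower at 29 °C with -0.90 and -0.66 (adjusted p = 0.00221 and 0.00457). In WT the level of GI was 30.8 CPM at 22 °C and 83.4 CPM at 29 °C, and that of LUX 42 CPM and 81.2 CPM. MYBL2, CIPK20, cPT4, TBL26, DGR2, AT1G66180 and AT1G23330 were the other genes called at 22 °C and not at 29 °C.

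**Figure D5:**
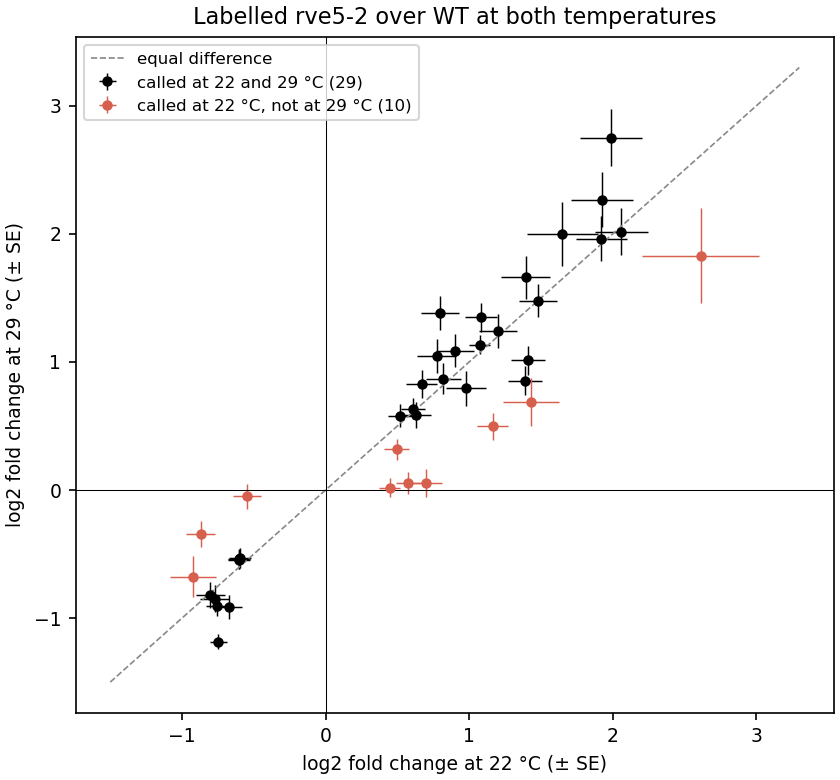
Log2 fold change of the libraries labelled rve5-2 over WT at 29 °C (y axis) against that at 22 °C (x axis), with SE bars, for genes called at 22 °C except RVE5, EXO70H4 and AT5G35935, which lie far outside the range. The 29 genes in black were called at both temperatures and the 10 in red were called at 22 °C and not at 29 °C, and all lie on the same side of 0 on the axes.

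The 12 libraries held 65.9 to 89.1 M counts (M, 1e6), and the 6 at 22 °C held 70.1 to 87.1 M. No pair of libraries of the same group agreed within sampling noise, judged on counts divided by an inferred number of counts per fragment. Root hair markers summed to 59.4 to 163 CPM in WT against 99.4 to 134 CPM in the libraries labelled rve5-2, endodermis and suberin markers to 215 to 247 CPM and 177 to 225 CPM, and root tip markers to 27.4 to 36.2 CPM and 23.7 to 26.5 CPM. Only the root tip ranges do not overlap, and no marker of these lists was called. All 5 root tip markers had a negative log2 fold change, with a median of -0.74, and their part in the result was not tested. Replicate 1 of WT at 29 °C stood apart with 4.72 CPM of root hair markers, against 7.6 CPM or more in the other libraries. Without it, 54 genes were called higher and 28 lower at 22 °C, all 42 of the above among them, and TOC1, FKF1, GRP8 and LNK2 joined the clock calls. Since no label says that the replicates came from separate cultures, the p-values here speak only of the scatter among these libraries.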

How the data were processed

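RNA was extracted with Trizol and sequenced from TruSeq RNA v2 libraries, per the labels' protocols. Such libraries do not mark the strand. The submitters' processing notes name cutadapt 1.9, HISAT2 2.0.4, StringTie 1.3.4d, edgeR and build TAIR10. Which step made which column is not given in the sources used here. The deposited table holds a whole-number count and an FPKM value (fragments per kilobase scaled to library size, computed by the authors) for each gene and library. Low counts were spaced by 3.73 to 3.77, so 1 fragment may have added about 4 counts. Dividing by the spacing was tried as an alternative. The shared treatment text names 29 °C throughout, so each sample's own label gave its temperature.

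edgeR 4.0.16 in R 4.3.3 was run on the counts, with filterByExpr with a minimum count of 10, TMM scaling and a quasi-likelihood fit with 1 mean per group over all 12 libraries, so that the groups share the estimate of spread. The Benjamini-Hochberg adjustment covered the whole set of 21870 genes, and calls are those under 0.05. CPM is counts per 1e6 after TMM scaling. SEs are approximate, taken as the log2 fold change over the root of F. The code was tested on simulated data. DESeq2 1.42.0 and limma 3.58.1 on log2 FPKM with pseudocounts of 1 and 0.1 served as alternatives. The 30 gene lists with 464 loci, and the genes described, were chosen with earlier results of these data known. Named were RVE5, CCA1, LHY, PIF4, YUC8, the neighbours of RVE5, the 12 largest rises and falls, the 8 largest with a symbol, and, per list, up to 3 called members lowest in adjusted p. The rule also covered the members of the morning and evening clock lists, of which only some are given here. All other names were chosen after their values were seen. Positions are those of the deposited table. Sequences come from RefSeq TAIR10.1, and promoter windows were placed by the starts in the deposited table. Of the loci in the table, 31912 were found in RefSeq and 9854 had the same start and end.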

Additional observations from a re-analysis of the deposited data

How the results depend on the processing

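The counts of 30 genes higher and 12 lower at 22 °C stayed within 1.5 times under RLE and upper-quartile scaling, no filter, a mean CPM of at least 1, counts divided by their spacing, and limma on log2 FPKM with either pseudocount, and no called gene changed sign in any setting. Of the uncalled genes RVE6, AT4G01330, ELF3, ELF4, PRR9, ZTL, COR27 and YUC8 changed sign in at least 1. DESeq2 called 107 higher and 36 lower, all 42 among them, and 2 of the 42 for the difference between temperatures. A fit of the 6 libraries at 22 °C alone called 46 and 29, with 40 of the 42 among them. Without replicate 1 of WT at 29 °C, an alternative added after seeing the data, the counts were 54 and 28. In each case the cause was not tested. With each library at 22 °C left out in turn, 16 to 37 genes were called higher and 9 to 11 lower, and 0 of the 42 for the difference between temperatures. The fewest came without replicate 3 of WT, and 17, 17 and 19 genes were called higher without replicate 2 of WT and replicates 1 and 2 labelled rve5-2. In these refits 22 of the 42 genes were called every time, 14 higher and 8 lower, and 34 held under the other settings. Called in none of the 6 refits were CDF3, TBL26 and AT1G23330. PIF4 lost its call without replicate 2 or 3 of WT or replicate 1 labelled rve5-2, and MYBL2 and BBX24 without replicate 3 of WT or replicate 1 labelled rve5-2. CIPK20 was called in 1 refit only. The size of the fall of AT5G35935 ran from -8.03 to -6.67 in the refits and was -2.003 by limma on log2(FPKM + 1), and the cause was not tested. Replicate numbers did not pair the samples at 22 °C, with correlations of 0.107, -0.0447 and 0.0137 between same-numbered libraries, and a fit with the replicate number as a block called 31 and 11. Low counts limit what can be said of CCA1 and LHY.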

Other observations

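Further lists gave no call by edgeR at 22 °C. At an unadjusted p under 0.05, which 6.39% of all genes tested had, there were 2 of 23 heat shock genes, 1 of 15 cold response genes, 2 of 17 iron uptake genes, 2 of 14 sugar starvation genes, 1 of 17 jasmonate genes, 1 of 14 cell division genes and 0 of 12 reference genes. Their median log2 fold changes were -0.07, -0.01, 0.28, 0.26, -0.11, -0.09 and 0.04, beside -0.00 over all genes tested, and DESeq2 called none of these genes. The B-box genes BBX28 and BBX25 had log2 fold changes of 1.12 and 0.74 (adjusted p = 0.0938 and 0.183), and at 29 °C they were called with 1.51 and 1.22.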
